A study of Mus musculus with 9 samples.

Results

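Ccl3, Ccl4, Ccl5 and Ccl9 are 4 of the 2124 genes read in both single-cell panels of this series, and they were taken by name as the CC chemokines of activated CD8+ T cells. CC chemokines are small secreted proteins that draw leukocytes along a gradient through G protein-coupled CC receptors. T cells release Ccl3 and Ccl4 soon after the antigen receptor is engaged, and Ccl3 is a ligand of Ccr1. Ccl5 is known for arriving late after activation and for staying on as stored transcript in effector and memory cells. Ccl9, which signals through Ccr1, is mostly known from myeloid cells of the mouse.

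The cells came from subcutaneous B16F10 melanomas of 8-week-old female C57BL/6 mice, taken on day 14. The sort kept CD8+ TCRbeta+ cells that were CD4-, lineage-negative and unmarked by an antibody given intravenously just before death. One mouse had received anti-CD4 mAb (clone GK1.5), 1 anti-PD-L1 mAb (clone 10F.9G2) and 1 no antibody; each dose was 200 µg on days 5 and 9. The anti-CD4 tumour was captured in its own cartridge under sample tags 5 and 6, together with spleen T cells of Pmel-1 mice (a transgenic receptor against a melanoma antigen) added after the sort under tags 7, 8 and 9. The untreated and the anti-PD-L1 tumour shared the other cartridge under tags 1 and 2, and which tag is which was not given in the sources used here. Each tumour is 1 mouse, so treatment, animal and cartridge cannot be told apart. The 3 tumours served as replicates only for contrasts made within each of them.

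Cells with a beta chain numbered 12304 in the anti-CD4 tumour, 6412 in the tag 1 tumour and 11310 in the tag 2 tumour. They fell into 1474, 1912 and 7398 clones, with median depths of 21194, 17629.5 and 13932 reads per cell. Tags 7 to 9 held 635, 153 and 72 cells, of which 618, 130 and 40 carried the Pmel-1 chain. All 7 genes of the CD8 T cell list were measured, and at least 1 of them was read in 99.9% of the cells of the anti-CD4 tumour, the lowest of the 3. Cd4 or Foxp3 was read in 0.0936% to 1.75% of cells. A read of any of the 9 measured macrophage and monocyte genes, of 13 listed, was found in 8.30%, 3.31% and 3.45% of cells of the anti-CD4, tag 1 and tag 2 tumours. Other lists were read more often. Any of 4 measured B cell genes was read in 18.8%, 17.8% and 28.7% of cells of these tumours. Any of 3 measured NK cell genes (Klra8, Eomes and Klre1) was read in 30.6%, 41.7% and 21.2%. Flt3 or Itgax, of the dendritic cell list, was read in 12.9%, 31.2% and 4.12%. The source of these reads was not tested. None of the 5 melanoma genes was among the genes compared. The cartridges had 397 cell numbers in common, so cells were identified by cartridge and number together.

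The 4 genes lie in 1 cluster on chromosome 11 of GRCm38.p6: Ccl5 at 83525778 to 83530518, Ccl9 at 83572917 to 83578636, Ccl3 at 83647843 to 83649378 and Ccl4 at 83648624 to 83664683, all protein-coding in RefSeq. The annotated spans of Ccl3 and Ccl4 overlap, and whether counting used the strand was not given in the sources used here. Reads from the overlap cannot be told apart. Counts scaled to the library total (CPM) depend on each gene's primers, so the level of a gene is compared here only with itself.

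The Ccl5 message was spread over nearly the whole of the anti-CD4 and tag 1 tumours, while Ccl3 and Ccl4 were read in a minority of cells in every tumour. After each cell was thinned to 4000 reads, Ccl5 was read in 96.7% of anti-CD4 cells, 94.0% of tag 1 cells and 74.9% of tag 2 cells. A cell at the median held 314, 521 and 14 Ccl5 reads in these tumours. The tag 2 tumour stood lowest, with 41.1% of its cells at 40 or more Ccl5 reads against 88.0% and 83.5% in the others. In CPM, Ccl5 was 94678 in the anti-CD4 tumour, 139399 in tag 1 and 42789 in tag 2.

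Ccl3 and Ccl4 had another order. Ccl3 was read in 14.2% of anti-CD4 cells (exact Clopper-Pearson 95% interval 13.6 to 14.8), 2.04% of tag 1 cells (1.71 to 2.42) and 3.27% of tag 2 cells (2.95 to 3.62). Its CPM was 881, 115 and 309, and the 10 cells richest in Ccl3 held 11.1%, 51.4% and 30.4% of its reads. Ccl4 was read in 28.5% (27.7 to 29.3), 6.64% (6.05 to 7.28) and 6.13% (5.69 to 6.59) of cells, and its CPM was 1359, 175 and 277. The anti-CD4 tumour was thus highest for Ccl3 and Ccl4. For Ccl5 the tag 1 tumour was highest by CPM and by the median cell, and the anti-CD4 tumour by the share of cells. There is no replicate of a tumour and therefore no test of these orders, and the intervals cover counting error only.

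Ccl9 was rare. It was read in 2.33%, 0.764% and 1.16% of cells, at 428, 110 and 257 CPM. The 10 cells richest in Ccl9 held 49.8%, 83.0% and 49.9% of its reads in the 3 tumours. Tags 5 and 6, which label cells of the same tumour, gave Ccl9 at 561 and 294 CPM, whereas their Ccl5 was 94986 and 94368 CPM.

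The Pmel-1 spike-in gives the 4 genes in spleen T cells. In its 788 cells with the Pmel-1 chain, Ccl5 was read in 92.8% of cells at 115703 CPM, within the range of the tumours. Ccl3 was read in 2.92% (1.86 to 4.35) and Ccl4 in 11.4% (9.28 to 13.8) of these cells, at 109 and 304 CPM. The 72 cells under the same tags with other chains had Ccl3 in 22.2% and Ccl4 in 34.7% of cells. No cell type known to lack these genes was in the sort, and the share of reads from free RNA was not tested.

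The 4 gates on the thinned reads were used to describe cell state. Tcf7, a factor of naive and stem-like cells, with no Pdcd1, Havcr2 or Klrg1 defined the Tcf7+ Pdcd1- gate. Tcf7 with Pdcd1, the PD-1 receptor, and no Havcr2 defined the Tcf7+ Pdcd1+ gate. Pdcd1 with Havcr2 (TIM-3) and no Tcf7, the combination known from terminally exhausted cells, defined the Havcr2+ gate. Klrg1, a receptor of short-lived effector cells, with no Pdcd1 or Havcr2 defined the Klrg1+ gate. The Havcr2+ gate held 5275, 250 and 941 cells of the anti-CD4, tag 1 and tag 2 tumours, and the Tcf7+ Pdcd1- gate 859, 2591 and 6152. A gate called at 1 read is a range: among cells positive for Havcr2, 14.9%, 17.9% and 16.3% had only 1 or 2 reads of it.

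Ccl3 rose from the Tcf7+ Pdcd1- to the Havcr2+ gate in every tumour, Ccl4 rose with it by less, and Ccl5 did not pass the test and differed in sign among the tumours. Ccl3 was 1175, 422 and 1069 CPM in the Havcr2+ gate of the anti-CD4, tag 1 and tag 2 tumours and 102, 42.6 and 32.1 CPM in the Tcf7+ Pdcd1- gate. The 2 sets of values did not overlap, and the share of all genes with such a gap is not known. The log2 difference was 4.0 (SE 0.48, adjusted p = 0.00144 by edgeR's quasi-likelihood test on 1 sum of reads per gate and mouse, blocked by mouse, with p adjusted over all genes by the Benjamini-Hochberg method). In this contrast 99 of 731 genes tested were called, which is 13.5%, 44 of them higher and 55 lower, and the median over all genes was 0.01.

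Ccl4 in the same contrast was 1725, 192 and 623 CPM against 300.2, 138 and 109 CPM. The values of the gates overlapped across tumours, and within tumours the log2 differences were 3.02, 0.31 and 2.4. Differences within a tumour were taken after TMM scaling, which corrects for the composition of a sum, whereas levels in CPM were not, so the 2 can differ in size and sign. The fitted difference was 1.96 (SE 0.49, adjusted p = 0.0298). Without the anti-CD4 tumour the adjusted p was 0.242 and without the tag 2 tumour 0.278, so the Ccl4 call rests on those 2 tumours; it held without the tag 1 tumour. The Ccl3 call has an adjusted p of 0.0514 without the tag 2 tumour.

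Ccl5 was 89962, 88807 and 35987 CPM in the Havcr2+ gate and 64935, 143143 and 46285 CPM in the Tcf7+ Pdcd1- gate. It was higher in the Havcr2+ gate of the anti-CD4 tumour and lower in that of tag 1. In tag 2 the direction changed with thinning: Havcr2+ gate cells had a median of 42997 reads against 11045, and with each cell thinned to 4000 reads Ccl5 was higher there, at 38360 against 33521 CPM, with medians of 101 against 5 reads and 74.6% against 34.9% of cells at 40 or more. The fitted difference was -0.08 (SE 0.51, adjusted p = 0.933). Ccl9, at 236, 543 and 752 CPM against 196, 18.3 and 39.4, had a difference of 2.79 (SE 1.33) with an adjusted p of 0.202. Cells with a macrophage marker read made up 9.76%, 6.4% and 4.25% of the Havcr2+ gate and 6.87%, 3.51% and 3.27% of the Tcf7+ Pdcd1- gate, while the summed level of these genes was lower in the Havcr2+ gate, at 423, 170 and 79.5 CPM against 2916, 221 and 145. With those cells left out, the Ccl3 and Ccl4 calls held, and Ccl9 was called at a log2 difference of 4.73 (adjusted p = 0.0135).

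**Figure D1:**
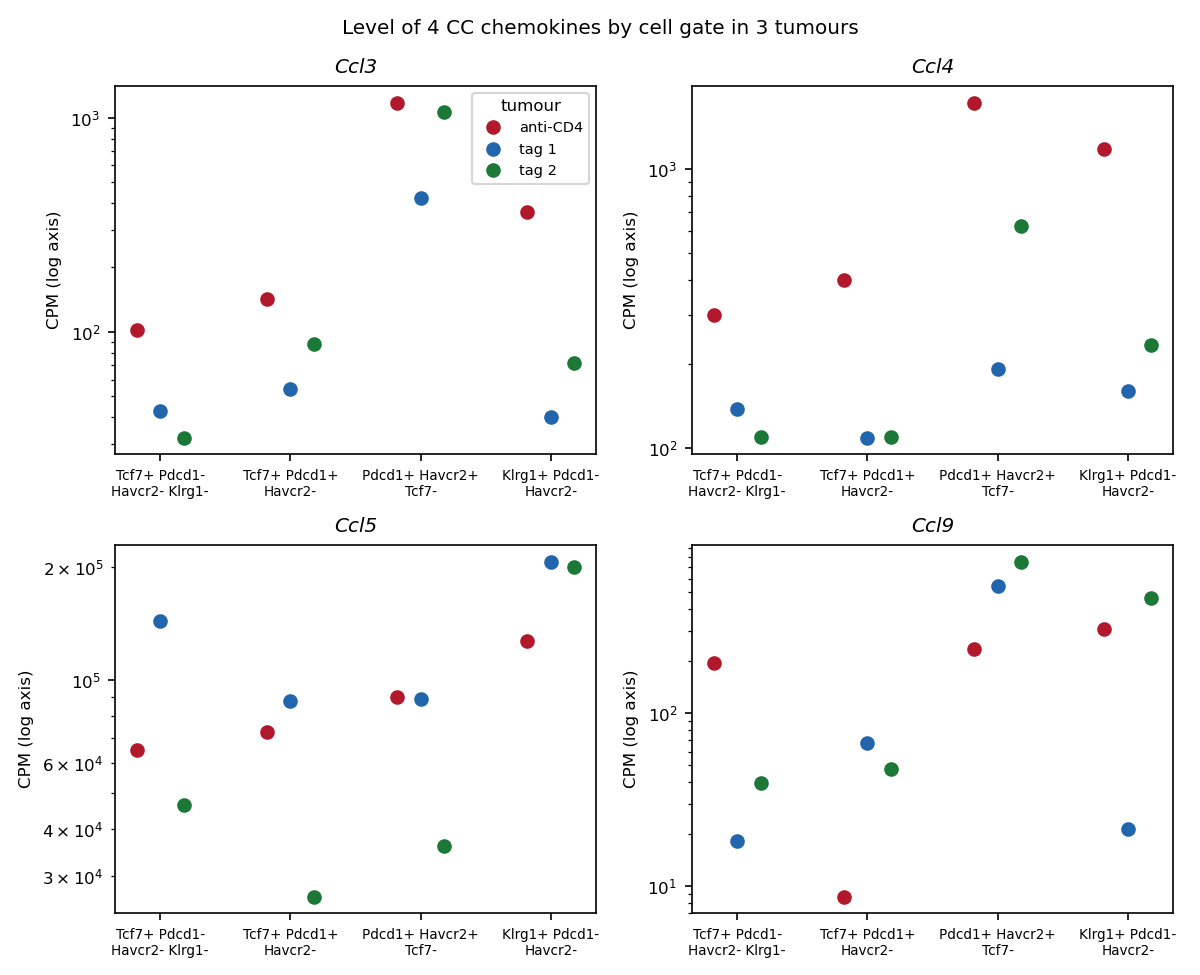
Level of each chemokine (CPM, log axis) in the 4 gates, 1 point for each tumour, 1 panel for each gene. Ccl3 sits between 422 and 1175 CPM in the Havcr2+ gate and between 32.1 and 102 in the Tcf7+ Pdcd1- gate, while the Ccl5 points of these gates overlap.

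The parting of Ccl5 from Ccl3 is seen without any scaling in the ratio of their reads within a sum. From the Tcf7+ Pdcd1- to the Havcr2+ gate the log2 ratio of Ccl5 to Ccl3 moved by -3.05, -3.99 and -5.42, a mean of -4.15 ± 1.19 (SD, n = 3). The ratio of Ccl5 to Ccl4 moved by -2.03 ± 0.85 (SD, n = 3). Each was lower in 3 of 3 tumours. The exact two-sided sign-flip p was 0.25, the smallest that 3 mice allow, so this design cannot pass 0.05 on a ratio.

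In the Tcf7+ Pdcd1+ gate Ccl3 was 143, 53.9 and 88.1 CPM. After TMM scaling it was within 1.26 log2 units of the Tcf7+ Pdcd1- gate in each tumour, and in plain CPM tag 2 differed by 1.45. The fitted difference was 0.58 (SE 0.43, adjusted p = 0.541), and of 731 genes 6 were called (0.821%), none of them a chemokine described here. Ccl5 in this gate was 72655, 87795 and 26422 CPM, with a difference of -0.57 (SE 0.50, adjusted p = 0.636). Against this gate, Ccl3 of the Havcr2+ gate was higher by 3.42 (SE 0.46, adjusted p = 0.00623), by 3.53, 2.97 and 3.68 in the separate tumours. In that contrast 16 of 731 genes were called (2.19%). Leaving out any 1 tumour raised the adjusted p to between 0.096 and 0.133, and leaving out the largest clone of each mouse to 0.0632. Ccl4 differed by 2.13 (SE 0.48) at an adjusted p of 0.0628 (9.03e-05 by DESeq2), and Ccl5 by 0.50 (SE 0.50) at 0.821.

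Ccl5 reached its highest level of any gate in the Klrg1+ cells, at 126462, 206000 and 199046 CPM. This gate held 112, 577 and 87 cells. Against the Tcf7+ Pdcd1- gate the log2 differences were 0.95, 0.73 and 2.38, and the fitted difference of 1.49 (SE 0.52) had an adjusted p of 0.178. Of 731 genes 17 were called (2.33%), and no chemokine described here was among them. Ccl3 in Klrg1+ cells was 361, 39.9 and 71.7 CPM, a difference of 1.11 (SE 0.44, adjusted p = 0.244) from the Tcf7+ Pdcd1- gate.

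The Havcr2+ and Klrg1+ gates, the combinations of exhausted and of short-lived effector cells, parted Ccl3 from Ccl5. Ccl3 was higher in the Havcr2+ gate by 2.89 (SE 0.46, adjusted p = 0.0128), by 2.21, 3.03 and 3.51 in the separate tumours. In this contrast 30 of 731 genes were called (4.1%). Without 1 tumour the adjusted p of Ccl3 ran from 0.0405 to 0.222, and with each mouse's largest clone left out it was 0.0633. Ccl5 differed by 0.02, -1.59 and -2.85, with a fitted value of -1.57 (SE 0.53, adjusted p = 0.145). In plain CPM, Ccl5 was lower in the Havcr2+ than in the Klrg1+ gate of each tumour, the log2 difference being -0.49, -1.21 and -2.47, so the anti-CD4 value near 0 depends on the scaling. Ccl4 differed by 0.79 (SE 0.46, adjusted p = 0.379). The median over all genes in this contrast was 0.34. The Ccl5 to Ccl3 ratio differed by -4.39 ± 2.10 (SD, n = 3), lower in 3 of 3 tumours (exact sign-flip p = 0.25).

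Other genes of chemokine signalling and T cell activation were read from lists in the contrast of the Havcr2+ with the Tcf7+ Pdcd1- gate. Among the CC receptors described here, Ccr9 and Ccr10 fell. Ccr7, the lymph node homing receptor, differed by -1.66 (SE 0.80, adjusted p = 0.205) and Ccr2 by 1.37 (SE 0.48, adjusted p = 0.106). None of 8 tested genes among 22 other chemokines passed, and their median was 0.46. Xcl1, a chemokine of activated CD8+ cells that attracts cross-presenting dendritic cells, differed by 0.57 (SE 0.36, adjusted p = 0.322), and the interferon-induced Cxcl10 by -1.50 (SE 0.82, adjusted p = 0.258). Ccl17 differed by 0.36, with an SE of 5.50 (adjusted p = 0.972).

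Of the genes that follow T cell receptor signalling, 16 were tested: Tnfrsf9 (the costimulatory receptor 4-1BB) and Irf8 rose, by 2.98 and 3.26, and Cd69 and Myc fell by 2.01 and 2.76. The list median was -0.59. Its most abundant genes, the phosphatase Dusp2 and the AP-1 subunit Junb, differed by -0.76 (SE 0.46, adjusted p = 0.295) and -0.81 (SE 0.26, adjusted p = 0.0752). Of 10 effector cytokines Ifng rose, by 2.48 (SE 0.39, adjusted p = 0.00478), with a list median of 1.02; Ltb differed by -0.18 (SE 0.30) and Fasl by 0.62 (SE 0.44). Of 8 tested cytotoxic genes Gzmb, Prf1 and Nkg7 rose, by 3.41, 2.83 and 1.21, and Lamp1 and Gzmm fell (-1.09 and -3.80), with a median of 0.96; Ctsw differed by -0.10 (SE 0.25). Of 7 tested transcription factors Tbx21 rose by 1.19, and Bcl6, Lef1 and Tcf7, the last used to set the gates, fell; Eomes differed by -0.34 (SE 0.39) and Runx3 by 0.01 (SE 0.23), with a median of -0.34. The median over all genes was 0.01.

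**Figure D2:**
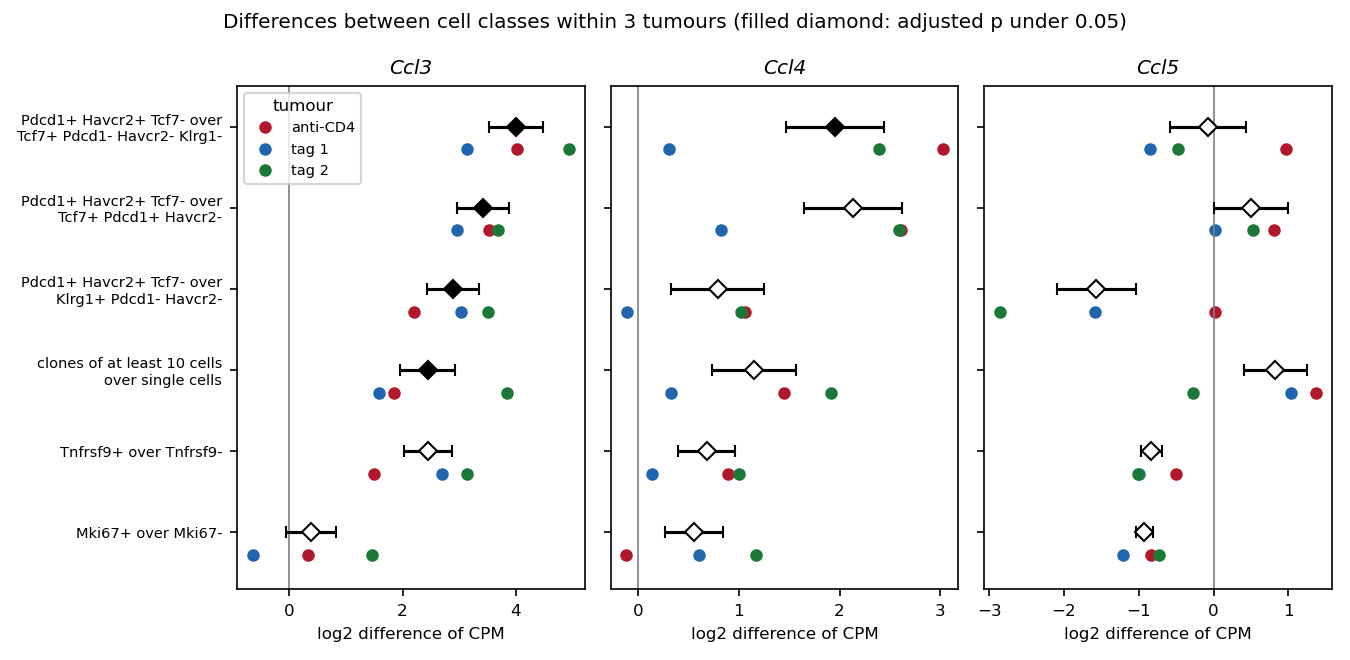
Log2 differences of Ccl3, Ccl4 and Ccl5 in 6 contrasts: diamonds are fitted values with bars of 1 SE, filled where the adjusted p is under 0.05, and small points are the 3 tumours. Ccl3 lies at 4.0 in the Havcr2+ against the Tcf7+ Pdcd1- gate, where Ccl5 lies at -0.08.

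Tnfrsf9 is known as a marker of recent antigen contact, and it was used to split all cells of a tumour. Ccl3 was 1284, 263 and 543 CPM in Tnfrsf9+ cells and 459, 37.9 and 58.0 CPM in Tnfrsf9- cells of the anti-CD4, tag 1 and tag 2 tumours. Ccl3 was higher in the Tnfrsf9+ cells of 3 of 3 tumours. Ccl5 was 78329, 89068 and 29859 CPM in Tnfrsf9+ cells and 111786, 165761 and 56642 CPM in Tnfrsf9- cells, lower in 3 of 3. Per cell at 4000 reads this differed in tag 2: its summed Ccl5 stayed lower in Tnfrsf9+ cells (31843 against 39904 CPM), but their median was higher (42 against 7 reads), and 51.0% against 37.0% of them held 40 or more. The fitted differences were 2.45 (SE 0.42) for Ccl3 and -0.83 (SE 0.14) for Ccl5. Neither passed after adjustment by edgeR (adjusted p = 0.227 each), in a contrast where 2 of 1321 genes were called (0.151%). Ccl3 passed by DESeq2 (adjusted p = 0.00167) and with cells thinned to 4000 reads before summing (0.0113). The 2 genes called by edgeR were Tnfrsf9 itself and Xcl1, the latter at 2.54 (SE 0.16, adjusted p = 0.0148). Both are in the list of T cell receptor signal genes, of which 20 were tested. The median of that list was -0.29, against -0.006 over all genes. Whether the split follows recent antigen contact was not tested. Ccl4, at 1750, 194 and 372 CPM against 949, 165 and 175, differed by 0.68 (SE 0.28, adjusted p = 0.501).

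The Ccl5 to Ccl3 ratio was lower in Tnfrsf9+ cells by 2.0, 3.69 and 4.15 log2 units in the 3 tumours. Its mean difference was -3.28 ± 1.13, and that of the Ccl5 to Ccl4 ratio -1.51 ± 0.45 (SD, n = 3, exact sign-flip p = 0.25 each). The split was then repeated within a gate. Among Havcr2+ gate cells, Ccl3 was 1548, 505 and 1109 CPM with Tnfrsf9 and 601, 138 and 591 CPM without it. The fitted difference of 1.37 (SE 0.24) had an adjusted p of 0.33, with 1 of 603 genes called (0.166%). With thinned cells the log2 differences in Ccl3 CPM were 1.32, 1.28 and 0.06, against 1.37, 1.87 and 0.91 without thinning. The tag 2 levels were then 922 and 882 CPM, so its difference nearly vanished. This gate held only 2376, 72 and 91 Tnfrsf9- cells in the 3 tumours. Ccl5 there was 77407, 63152 and 35430 CPM against 109315, 176214 and 42620, lower in 3 of 3 tumours, by 0.76 in the fit (SE 0.29, adjusted p = 0.506). Ccl4 differed by -0.07 (SE 0.36, adjusted p = 0.994), by 0.68, -0.05 and -0.85 in the separate tumours. Among Tcf7+ Pdcd1- cells, Ccl3 differed by 1.31 (SE 0.53, adjusted p = 0.32) and Ccl5 by -0.35 (SE 0.07, adjusted p = 0.0992), with 3 of 511 genes called (0.587%).

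Mki67, a marker of the cell cycle, split the summed Ccl5 in the same direction in each tumour, short of the threshold. Ccl5 was 62087 CPM in Mki67+ and 107866 in Mki67- cells of the anti-CD4 tumour, 68514 and 147219 in tag 1, and 26258 and 46064 in tag 2. It was lower in 3 of 3 tumours, by a fitted difference of -0.93 (SE 0.11) whose adjusted p of 0.057 did not pass. In tag 2 the Mki67+ cell at the median held more Ccl5 at 4000 reads (44 against 11 reads), and 52.1% against 40.2% of cells held 40 or more. In this contrast 10 of 1240 genes were called (0.806%). Ccl3 was 1053 against 811, 81.7 against 119 and 636 against 244 CPM, with no common sign and a difference of 0.38 (SE 0.44, adjusted p = 0.893).

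**Figure D3:**
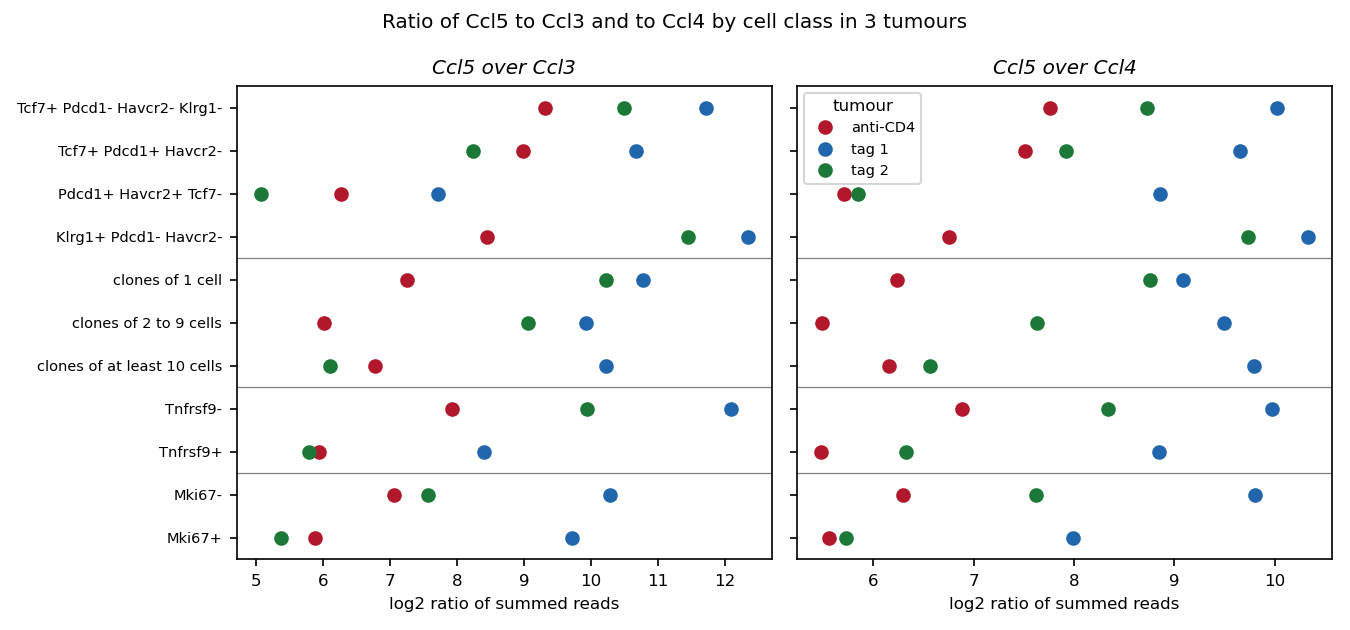
Log2 ratio of Ccl5 to Ccl3 reads and of Ccl5 to Ccl4 reads, by gate, clone size, Tnfrsf9 and Mki67, 1 point for each tumour. Only differences along a panel can be read, since primers differ between genes; the Havcr2+ gate and the Tnfrsf9+ cells lie below their counterparts in all 3 tumours.

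Within single cells Ccl3 and Ccl4 were found together, and Ccl4 was also found more often with high Ccl5. Ccl4 was read in 62.5% of Ccl3+ cells and 22.8% of Ccl3- cells of the anti-CD4 tumour, in 22.9% and 6.30% in tag 1, and in 36.5% and 5.10% in tag 2. Ccl3+ cells thus held Ccl4 more often in each tumour. The annotated spans of these genes overlap, and the part of reads from the overlap in the joint calls was not tested. Ccl5 at 40 or more reads was found in 89.9% of Ccl3+ against 87.7% of Ccl3- cells of the anti-CD4 tumour, in 79.4% against 83.6% in tag 1, and in 67.6% against 40.2% in tag 2. Ccl3+ cells thus held high Ccl5 more often in tag 2, by little in the anti-CD4 tumour and less often in tag 1. For Ccl4 the same shares were 91.3% of Ccl4+ against 86.7% of Ccl4- cells, 91.8% against 82.9%, and 73.2% against 39.0%, higher in Ccl4+ cells of each tumour. Over cells, Pearson's r of log2 reads was 0.45, 0.11 and 0.25 for Ccl3 with Ccl4 -0.01, -0.03 and 0.09 for Ccl3 with Ccl5, and 0.04, 0.06 and 0.16 for Ccl4 with Ccl5 (12304, 6412 and 11310 cells, which share a mouse, library and clones).

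Cells with reads of Ccl3 and Ccl4 together numbered 1090 in the anti-CD4 tumour (8.86% of its cells), 30 in tag 1 (0.468%) and 135 in tag 2 (1.19%). Their Ccl5 was 78365, 70967 and 42243 CPM, against 96912, 138860 and 40571 in cells with neither. Cells with Ccl4 alone had the highest Ccl5 of the 4 patterns in each tumour, at 100240, 171987 and 72253 CPM. Cells with Ccl3 alone had 85989, 91144 and 37492 CPM. Per cell, tag 2 differed: its median thinned Ccl5 was 107 reads with both, 79 with Ccl3 alone and 10 with neither. In the anti-CD4 tumour these medians were 268, 295 and 313 reads, and in tag 1 they were 271.5, 368 and 516. Tnfrsf9 was read in 65.1%, 60.0% and 85.2% of cells with both and in 39.6%, 23.8% and 26.8% of cells with neither. Ifng, the cytokine of effector T cells, was read in 79.5%, 46.7% and 72.6% of cells with both and in 49.0%, 18.6% and 15.6% of cells with neither. Cells with both were also sequenced more deeply, at medians of 28899.5, 33734 and 47247 reads against 19603, 17370 and 13097.5, and the part of total reads per cell in these shares beyond the thinning was not tested.

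Ranking cells by Ccl5 gave no common trend for Ccl3. From the lowest to the highest Ccl5 class of 4 equal classes of cells, Ccl3 was read in 15.0%, 16.4%, 13.8% and 11.5% in the anti-CD4 tumour and in 3.1%, 2.6%, 0.9% and 1.6% in tag 1. In tag 2 the shares were 1.0%, 1.6%, 5.9% and 4.6%. Ccl4 in tag 1 went from 4.1% to 9.5% of cells and in tag 2 from 2.0% to 12.1%, while in the anti-CD4 tumour it was 25.6% in the lowest and 27.8% in the highest class. Ccl4 thus sat with high Ccl5 in the tag 1 and tag 2 tumours, where Ccl3 did not follow it in tag 1.

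Ccl3 was more frequent in Ccl9+ than in Ccl9- cells, though most Ccl9+ cells had no Ccl3 read. Ccl3 was read in 30.7% of Ccl9+ and 13.8% of Ccl9- cells of the anti-CD4 tumour, in 20.4% and 1.90% in tag 1, and in 22.9% and 3.04% in tag 2, over 287, 49 and 131 Ccl9+ cells. A macrophage marker was read in 27.9%, 20.4% and 6.11% of Ccl9+ cells against 7.83%, 3.17% and 3.42% of Ccl9- cells. The summed level of these 9 genes was 50246, 808 and 18114 CPM in Ccl9+ cells and 235, 144 and 106 CPM in the others. How much of the Ccl9 signal came with such transcripts was not tested.

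Genes most like each chemokine over cells were ranked among 209 genes read in at least 5% of cells of each tumour, by the mean over tumours of Pearson's r. For Ccl3 they were Ccl4 (mean r 0.27), Ifng (0.20), Irf8 (0.18), Havcr2 (0.17) and Tnfrsf9 (0.16). For Ccl4 they were Ifng (0.15), Havcr2, Gzmb, Irf8 and Nkg7; Ccl3, whose mean r with Ccl4 was higher, was read in too few cells of tags 1 and 2 to be ranked. For Ccl5 they were the granule genes Gzmb (0.30), Nkg7 (0.28) and Gzmk (0.24), then Fam45a and Lgals3, and its lowest was Ccr7 (-0.48). For Ccl9 they were Irf8 (0.12), Tnfrsf9, Lgals3, Lag3 and Havcr2. The lists of Ccl3 and Ccl5 had no gene in common. Lists of 5 from 209 genes would mostly share none even if drawn at random, so nothing is read from this. All these correlations are weak, and cells share mouse, library and clone.

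Ccl3 was higher in expanded clones, those with many cells of the same beta chain, and this call was lost when each clone gave 1 cell. Ccl3 was 331, 836 and 921 CPM in clones of 1 cell, 2 to 9 cells and at least 10 cells of the anti-CD4 tumour, 50.5, 114 and 136 in tag 1, and 35.4, 155 and 534 in tag 2. The level was higher in larger clones at each step in each tumour. Clones of at least 10 cells exceeded clones of 1 cell by 2.44 (SE 0.49, adjusted p = 0.0385), with 69 of 800 genes called (8.62%), 38 higher and 31 lower, and a median over all genes of 0.14. Without 1 tumour the adjusted p ran from 0.093 to 0.204. With 1 cell drawn from each clone, so that 107, 67 and 55 clones of at least 10 cells gave 1 cell each, the difference was 0.08 (adjusted p = 0.946): the Ccl3 call was lost.

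Ccl5 did not follow clone size in the same way. It was 50343, 54129 and 100999 CPM across the 3 size classes of the anti-CD4 tumour and 88635, 111006 and 162259 in tag 1, but 42506, 82030 and 36584 in tag 2. The largest clones thus had the highest Ccl5 of the classes in the anti-CD4 and tag 1 tumours. In tag 2 the direction changed with thinning, at medians of 10606, 19726 and 32839 reads per cell: with cells thinned to 4000 reads Ccl5 was 29939, 78950 and 42853 CPM, lowest in clones of 1 cell, and 32.3%, 59.0% and 54.9% of cells held 40 or more reads. The fitted difference between the outer classes was 0.82 (SE 0.42, adjusted p = 0.233), and per tumour 1.37, 1.03 and -0.28. Ccl4 differed by 1.15 (SE 0.42, adjusted p = 0.105) and Ccl9 by 2.65 (SE 0.80, adjusted p = 0.0707). The macrophage gene C1qa was among the genes higher in the larger clones, by 6.26 (SE 1.12, adjusted p = 0.0309), and its part in the Ccl9 value was not tested. Between clones of 2 to 9 and of 1 cell edgeR called 0 of 800 genes (0.0%), with 175 at an unadjusted p under 0.05 and 101 called by DESeq2. Ccl3 differed there by 1.52 (SE 0.46, adjusted p = 0.171) and Ccl5 by 0.56 (SE 0.42, adjusted p = 0.44).

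State and size move together: 95.8%, 87.6% and 96.3% of Havcr2+ gate cells were in clones of at least 10 cells, against 14.6%, 45.8% and 5.72% of Tcf7+ Pdcd1- gate cells. Within the Tcf7+ Pdcd1- gate, Ccl5 of clones of at least 10 cells was 118448, 190082 and 87346 CPM, and that of clones of 1 cell 53286, 86194 and 39048 CPM. It was higher in the larger clones of 3 of 3 tumours, also in tag 2, by 1.10 (SE 0.15, adjusted p = 0.0619). EdgeR called 0 of 526 genes in that contrast (0.0%), with 115 at an unadjusted p under 0.05, while DESeq2 called 134, Ccl5 among them (adjusted p = 0.0034). Ccl3 in the same cells was 291 against 33.1, 37.4 against 61.3 and 36.8 against 27.7 CPM, a difference of 0.79 (SE 0.98, adjusted p = 0.622) with unlike signs. The contrast by clone size inside the Havcr2+ gate could not be fitted, since only the anti-CD4 tumour had 20 or more cells from clones of 1 cell there.

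In the same contrast of clones of at least 10 cells with clones of 1 cell, Ccr2 rose by 1.58 and Ccr9 fell, among the CC receptors described here. Of 8 tested other chemokines 1 rose, Cxcl13, a B cell attractant that exhausted T cells can make, from a low level. Ifng, Fasl and Il10 rose among 10 effector cytokines, by 1.89, 1.25 and 2.44 (median 0.99). Gzmb, Gzmk and Nkg7 rose among 8 cytotoxic genes, by 2.23, 2.16 and 1.10 (median 0.75). Of 16 T cell receptor signal genes Junb, Jun, Dusp1 and Myc fell, by 0.89, 1.53, 0.64 and 2.21, and none rose (median -0.35). Tbx21 and Prdm1 rose among 7 transcription factors, by 1.14 and 1.23. Xcl1 differed by 0.10 (SE 0.74, adjusted p = 0.941).

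Clones of at least 20 cells, 65 in the anti-CD4 tumour, 23 in tag 1 and 36 in tag 2, differed widely in these genes. The share of Ccl3+ cells ran from 0% to 52.2% (median 14.3%) over the anti-CD4 clones, from 0% to 17.1% (median 1.4%) in tag 1 and from 0% to 20.5% (median 4.5%) in tag 2. Clonal Ccl5 ran from 28567 to 208937 CPM, from 6077 to 224261 and from 1539 to 246890. Clones with no Ccl3+ cell numbered 5, 10 and 11. Over clones, the Ccl3 and Ccl4 shares had a Pearson r of 0.78, 0.01 and 0.57, and the Ccl3 share and Ccl5 CPM one of -0.35, -0.62 and -0.24. By rank the last relation was absent in tag 2, with a Spearman rho of -0.33, -0.50 and 0.0090 in the 3 tumours. These are descriptions: clones of 1 tumour share the mouse and library, and small clones have coarse shares.

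The 37 anti-CD4 clones large enough under tags 5 and 6 alike show how well such clonal values repeat between tags of 1 tumour. The r between the tags was 0.79 for the Ccl3 share, 0.57 for the Ccl4 share and 0.87 for Ccl5 CPM. The median absolute difference of the Ccl3 share was 5.42 percentage points. Clonal values were also spread inside 1 state. Among 37 anti-CD4 clones with enough cells in the Havcr2+ gate, Ccl3+ cells made up 2.86% to 56.8% (median 18.5%). Their Ccl5 ran from 33183 to 127979 CPM. In tag 2 the Ccl3 share of 11 such clones ran from 9.52% to 27.4%, and in tag 1 that of 3 from 0% to 22.7%. The part of counting error in these ranges was not tested.

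Clones with Tnfrsf9 in at least 50% of their cells were set beside the others. In tag 2, 26 such clones had Ccl5 from 1539 to 67325 CPM (median 16273), and the 10 others from 91317 to 246890 (median 138421). These ranges did not overlap in summed reads without thinning. Only chemokines were set beside this split, so the share of all genes with such a gap is not known. In tag 1 the median was 23766 CPM in 8 such clones and 174995 in the 15 others, with ranges of 6077 to 67264 and 28248 to 224261. In the anti-CD4 tumour the medians were 64647 in 28 clones and 96247 in 37, and the ranges overlapped widely. The median Ccl3 share was 23.0% against 11.8% in the anti-CD4 tumour, 11.5% against 0% in tag 1 and 7.33% against 0% in tag 2, in clones with much and with little Tnfrsf9. Ccl3-rich clones were thus Tnfrsf9-rich in each tumour, and Ccl5-rich clones were mostly not.

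**Figure D4:**
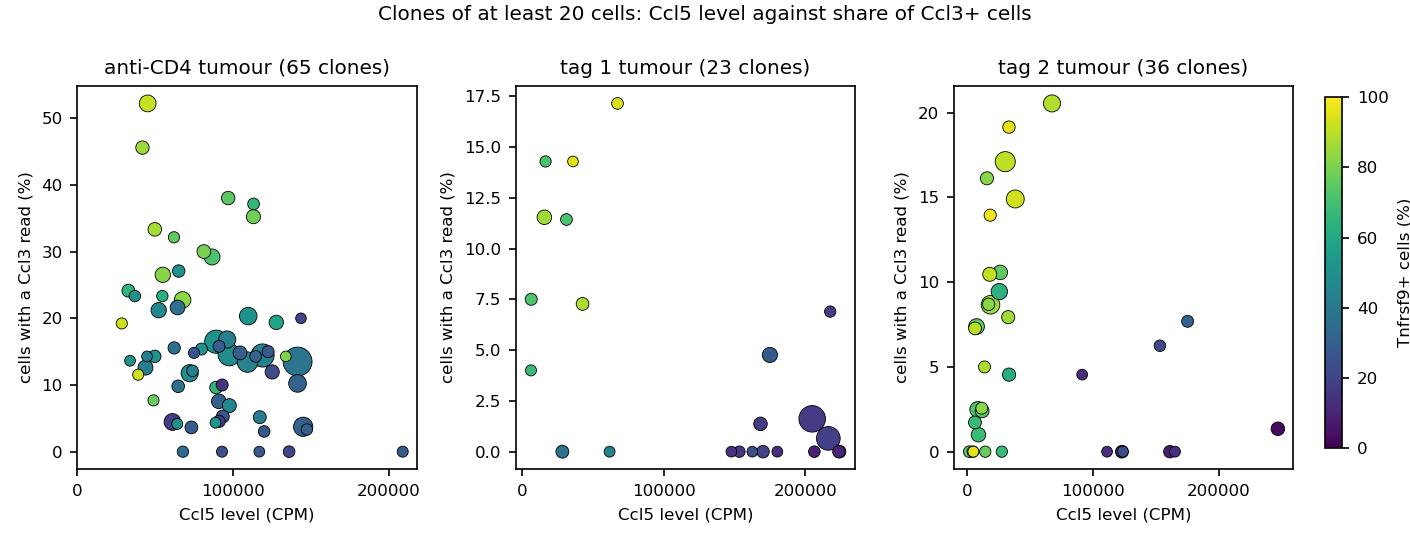
Each circle is a clone of at least 20 cells: Ccl5 level (CPM) against the share of its cells with a Ccl3 read (%), sized by cells and coloured by the share with Tnfrsf9, 1 panel for each tumour (65, 23 and 36 clones). Clones with high Ccl5 in tags 1 and 2 lie low on the Ccl3 axis, as do many tag 2 clones with little Ccl5, and the anti-CD4 clone with Ccl3 in 52.2% of cells has 45194 CPM of Ccl5.

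The clones at the ends of this range show the 2 patterns, and they were picked for their values. For each tumour the clone of highest Ccl5 and the clone of highest Ccl3 share are given by the CDR3 of their beta chain, 5′ to 3′, as deposited, with capitals for the bases outside the first and last 4 codons, the stretch that differs most between clones.
anti-CD4, highest Ccl5, TRBV19 and TRBJ1-6: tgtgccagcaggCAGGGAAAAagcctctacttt
anti-CD4, highest Ccl3, TRBV31 and TRBJ2-7: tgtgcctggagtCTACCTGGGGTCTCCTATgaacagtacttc
tag 1, highest Ccl5, TRBV16 and TRBJ1-2: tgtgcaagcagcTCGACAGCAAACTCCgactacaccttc
tag 1, highest Ccl3, TRBV13-2 and TRBJ2-4: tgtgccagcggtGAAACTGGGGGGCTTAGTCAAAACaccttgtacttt
tag 2, highest Ccl5, TRBV13-3 and TRBJ1-3: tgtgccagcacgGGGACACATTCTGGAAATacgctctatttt
tag 2, highest Ccl3, TRBV13-3 and TRBJ1-2: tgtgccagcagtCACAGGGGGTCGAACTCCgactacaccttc
The 2 tag 2 clones use the same V gene.

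The anti-CD4 TRBV31 clone (203 cells) had Ccl3 in 52.2% of its cells (45.1 to 59.3), Ccl4 in 55.7% and Ccl5 at 45194 CPM, and 83.3% of its cells fell in the Havcr2+ gate. The TRBV19 clone of that tumour (25 cells) had Ccl5 at 208937 CPM and Ccl3 in 0 of 25 cells, which allows a share of up to 13.7%, and 16.0% of its cells were in the Havcr2+ gate. In tag 1, the TRBV16 clone (50 cells) had Ccl5 at 224261 CPM, Ccl3 in 0% of cells (upper limit 7.11%), and 66.0% of its cells in the Tcf7+ Pdcd1- gate. Its counterpart with TRBV13-2 (35 cells) had Ccl3 in 17.1% (6.56 to 33.6), Ccl5 at 67264 CPM and 60.0% of its cells in the Havcr2+ gate. Limits and ranges are exact Clopper-Pearson 95% intervals.

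In tag 2, the TRBV13-3 and TRBJ1-3 clone (74 cells) had Ccl5 at 246890 CPM, the highest clonal value of the 3 tumours. Ccl3 was read in 1.35% of its cells and Ccl4 in 24.3%, so Ccl4 was present where Ccl3 was nearly not, and Tnfrsf9 was read in 2.70%. The TRBV13-3 and TRBJ1-2 clone (219 cells) had Ccl3 in 20.5% (15.4 to 26.5), Ccl4 in 26.0%, Tnfrsf9 in 88.6% and Ccl5 at 67325 CPM. These 2 clones had much the same share of Ccl4+ cells and differed in Ccl3, Ccl5 and Tnfrsf9.

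Since Ccl3 was called in 4 of the contrasts above, its promoter is shown from RefSeq (GRCm38.p6), 250 bases before to 50 after the start of the gene, on its own strand at chr11:83649329-83649628. Capitals mark matches to 4 patterns on either strand: GGAAA (NFAT core), TGANTCA (AP-1), TGACGTCA (cAMP response element) and TGTGGT (Runx). NFAT and AP-1 are factors that the T cell receptor activates.
Ccl3: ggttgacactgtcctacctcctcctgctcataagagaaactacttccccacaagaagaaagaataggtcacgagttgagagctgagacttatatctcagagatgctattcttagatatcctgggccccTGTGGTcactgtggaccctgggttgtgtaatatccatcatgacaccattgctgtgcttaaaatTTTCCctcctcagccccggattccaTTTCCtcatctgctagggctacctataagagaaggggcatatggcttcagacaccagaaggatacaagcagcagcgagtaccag
The NFAT core is matched on the other strand from 59 and 34 bases before the start, and the Runx letters from 122 before it. The window of Ccl9 holds the NFAT core from 71 and 35 bases before its start and an AP-1 match from 53 before it. Of 32851 mouse promoters of this length, 61.3% hold the NFAT core, 16.8% the Runx letters, 7.81% the AP-1 pattern and 1.79% the cAMP response element. A match describes letters only. Ccl4 and Ccl5 were not matched in the promoter table.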

How the data were processed

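The submitters' processing notes name the build GRCm38 with cutadapt 3.2 and 3.4, Bowtie2 2.4.2 and R 3.6.3; which step used which, and the counter and receptor caller, are not given in the sources used here. Each matrix deposited by the authors gives whole counts of each gene in each cell. The least in any cell is 4361, so the counts were taken for reads that were not collapsed to molecules, and intervals cover counting error only. The count of each beta chain was deposited as an estimated count, per the file headers, and only the chain's identity was used. Lymph node repertoires were not used here.

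Cells were joined to their beta chain by cartridge and cell number, and a clone is 1 V gene, CDR3 nucleotide sequence and J gene. Cells called doublets in the deposited tables (292 and 408), 74 untagged cells, cells without a beta chain and 10 Pmel-1 chain cells under tags 5 and 6 were left out; no doublet caller was added. The cells of tags 5 and 6 were pooled as 1 mouse. The 2124 genes in both matrices were kept. For shares, gates, Tnfrsf9 and Mki67 each cell was thinned to 4000 reads (0 cells had fewer), and a gene was called at 1 read.

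Reads were summed by mouse and class (at least 20 cells) and tested with edgeR 4.0.16 in R 4.3.3 (quasi-likelihood test, TMM scaling, a minimum count of 10 in filterByExpr, Benjamini-Hochberg adjustment over all genes tested, threshold 0.05). The mouse entered as a block, since the classes of a contrast come from the same animal. The 5 gate contrasts came from 1 fit, as did the 2 contrasts of clone size. Per-tumour log2 differences used TMM scaling and a prior count of 2; levels in CPM are unscaled. Ratios were compared by an exact two-sided sign-flip test over the 3 mice. Fitted differences followed changes put into simulated counts, whose spread was set beforehand and not estimated from these tumours. The share of changes found at the spread of these tumours was not tested. DESeq2 1.42.0, another scaling, no filter, no block, each mouse left out, thinned reads, other gates and other cell sets were alternatives. Leaving out cells with a macrophage marker, the split by Tnfrsf9 within a gate the cut of 40 Ccl5 reads and per-tumour differences in plain and thinned CPM were chosen after seeing the data. Python 3.11.15, numpy 2.4.6, scipy 1.17.1, pandas 2.3.3 and matplotlib 3.10.9 were also used.

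The chemokines, gene lists and contrasts were chosen with earlier results of these data known. The rule for named genes was the 4 chemokines, the 5 genes most like each over cells, and for each list its count with its 3 members of highest mean level; list members that passed the test, C1qa and the clones shown were named after their values were seen. One member of the CC receptor list is not reported here, so no count or median of that list is given.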

Additional observations from a re-analysis of the deposited data

Results flagged for a closer look

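In each of these 14 cases of a gene and a contrast 1 tumour moved one way and the other tumours the opposite way after TMM scaling; in plain CPM this held for 12 and with cells thinned to 4000 reads for 7. The thinned and plain values were added after seeing the data; the difference between tumours was not tested, and treatment, animal and cartridge cannot be told apart. For Ccl5, the log2 difference between the Havcr2+ and Tcf7+ Pdcd1- gates was 0.97 in the anti-CD4 tumour, and that between the Tcf7+ Pdcd1+ and Tcf7+ Pdcd1- gates was 0.16 there, both below 0 elsewhere; thinned, the former was 0.64, -0.49 and 0.19 in anti-CD4, tag 1 and tag 2. Ccl5 of the Havcr2+ against the Klrg1+ gate was 0.02 in the anti-CD4 tumour (0.0151 before rounding) and below 0 elsewhere, but -0.49 there in plain CPM and -0.58 thinned, so no tumour stood apart on those scales. Ccl5 of clones of at least 10 cells against clones of 1 cell was -0.28 in tag 2 and above 0 elsewhere, and 0.52 in tag 2 with thinned cells.

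Ccl4 differed by 0.41 between the Tcf7+ Pdcd1+ and Tcf7+ Pdcd1- gates of the anti-CD4 tumour, by -0.11 between the Havcr2+ and Klrg1+ gates of tag 1 (0.26 in plain CPM and thinned alike, the sign of the other tumours), by -0.0877 between clones of 2 to 9 cells and of 1 cell in tag 1, and by -0.11 with Mki67 in the anti-CD4 tumour. Thinned, the gate difference that led here had 1 sign in all tumours (0.47, 0.10 and 0.52), as had that of clone size (1.19, 0.0380 and 1.82). Ccl3 differed by -0.65 with Mki67 in tag 1. Inside the Tcf7+ Pdcd1- gate, large clones of tag 1 differed from clones of 1 cell by -0.48 in Ccl3 and by -1.10 in Ccl9. Ccl9 also differed by -4.48 between the Tcf7+ Pdcd1+ and Tcf7+ Pdcd1- gates and by -0.93 with Tnfrsf9 in the anti-CD4 tumour (0.30 thinned, the sign of the others), and by 0.80 with Mki67 in tag 2.

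Cells without a beta chain took part in no contrast. In the anti-CD4 tumour their Ccl9 was 5177 CPM over 1311 cells, against 428 CPM in cells with a beta chain. Tag 1 had Ccl9 at 4106 CPM over 1667 cells without the chain, against 110 CPM with it. For tag 2 these values were 510 CPM over 2530 cells and 257 CPM. Ccl9 was thus higher without the chain in each tumour. Ccl3 CPM was higher without the chain only in tag 1, at 522 against 115. Why these levels differed was not tested.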

How the results depend on the processing

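Below, H, T, P and K stand for the Havcr2+, Tcf7+ Pdcd1-, Tcf7+ Pdcd1+ and Klrg1+ gates, and H-T is the log2 difference between H and T; C10 and C2 are clones of at least 10 and of 2 to 9 cells against clones of 1 cell, and C10 in T is C10 inside gate T. Over 111 combinations of contrast and alternative, direction and side of the threshold were as in the report for 91 of Ccl3, 96 of Ccl4, 96 of Ccl5 and 99 of Ccl9, and the log2 ratios kept their sign in 59 of 64. With all 3 mice, Ccl3 in H-T was called under each alternative. The number of genes called stayed within 1.5 times in 48 of 111. Where a value moved, the cause was not tested.

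By DESeq2 more genes passed: 255 in H-T, 87 in P-T, 84 in H-P, 112 in K-T, 126 in H-K, 281 in C10, 101 in C2, 35 by Tnfrsf9, 43 by Mki67 and 134 in C10 in T. Members that passed by DESeq2 and not in the edgeR fit of the report were Ccl4 (2.08) and Ccl9 (3.65) in H-P and Ccl4 (1.20) and Ccl5 (1.48) in K-T. The others were Ccl5 in H-K (-1.71), Ccl9 in C10 (2.48), Ccl3 in C2 (1.45), Ccl3 by Tnfrsf9 (2.44) and Ccl5 in C10 in T (1.09). Of these, Ccl4 in H-P and Ccl5 in C10 in T also passed under several of the edgeR alternatives given below.

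Without the mouse as a replicate block, fewer genes passed: 60 in H-T, 2 in P-T, 3 in H-P, 8 in K-T, 14 in H-K, 0 in C10, 1 by Tnfrsf9 and 1 by Mki67. Without the block these calls were lost: Ccl4 in H-T (2.53), and Ccl3 in H-P (3.49), H-K (2.63) and C10 (2.13); Ccl4 in P-T turned to 0.11.

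With cells thinned to 4000 reads before summing, 40 genes passed in H-P, 33 in K-T, 54 in H-K, 163 in C10, 24 in C2, 25 by Tnfrsf9 and 56 in C10 in T. Ccl9 in H-T (3.67), Ccl4 in H-P (2.03), Ccl4 in C10 (1.29), Ccl3 by Tnfrsf9 (2.16), Ccl5 by Mki67 (-0.75) and Ccl5 in C10 in T (1.31) then passed. The signs of Ccl5 in H-T (0.17), Ccl4 in P-T (0.23), Ccl9 in C2 (-0.0611) and the Ccl5 to Ccl3 ratio in K-T (-0.11) turned.

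Without cells holding a macrophage marker read, Ccl9 in H-T (4.73), H-P (5.21) and C10 (3.16), Ccl4 in H-P (2.20), Ccl5 by Mki67 (-0.92) and Ccl5 in C10 in T (1.14) passed, with 2 genes called in C2, 8 by Tnfrsf9 and 32 in C10 in T. Without the largest clone of each mouse, the counts were 3 in P-T, 29 in H-P, 46 in H-K, 112 in C10 and 6 in C10 in T. There Ccl3 in H-P (3.18) and H-K (2.98) no longer passed, and Ccl4 in H-P (2.30) and Ccl5 in C10 in T (1.12) did. With gates at 3 reads, 2 genes passed in P-T, Ccl9 in P-T turned to 1.01, and Ccl4 in H-P (2.59) and Ccl5 by Mki67 (-1.02) passed. With median-of-ratios scaling, 28 genes passed in H-P, with Ccl4 (2.08) among them, and Ccl5 by Mki67 (-0.90) passed. With no filter on low counts, 30 genes passed in K-T and 109 in C10 in T, and Ccl5 by Mki67 (-0.99), Ccl5 (1.24) and Ccl9 (2.73) in C10 in T passed. With 1 cell per clone, Ccl3 in C10 was 0.0763 and no longer passed, Ccl4 (-0.36) and Ccl9 (-3.17) in C10 turned, and 3 genes passed in C2; C10 in T could not be fitted. By Tnfrsf9 inside gate H, 1 gene passed and Ccl4 turned to -0.0695, and inside gate T Ccl9 turned to -0.32.

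With each mouse left out in turn, the genes called ran from 16 to 58 in H-T, 1 to 1 in P-T, 3 to 6 in H-P, 0 to 8 in K-T, 5 to 35 in H-K, 0 to 3 in C10, 0 to 2 in C2, 0 to 1 by Tnfrsf9 and 0 to 5 by Mki67. Ccl3 ran from 3.44 to 4.37 in H-T, 3.10 to 3.68 in H-P, 2.46 to 3.49 in H-K, 1.70 to 2.88 in C10, -0.15 to 0.88 by Mki67 and -0.12 to 1.60 in C10 in T. Ccl4 ran from 1.54 to 2.50 in H-T. Ccl5 ran from -0.61 to 0.10 in H-T and from -2.15 to -0.80 in H-K, where it passed without the anti-CD4 tumour (adjusted p = 0.0396). Ccl9 ran from -2.78 to 1.20 in P-T. The Ccl5 to Ccl3 ratio ran from -0.12 to 0.78 in K-T, and the Ccl5 to Ccl4 ratio from -0.35 to 0.66 in K-T and from -1.13 to 0.31 in C10.

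A cut of 3 reads gave, for anti-CD4, tag 1 and tag 2 in turn, shares of 10.9%, 1.23% and 2.53% for Ccl3, 20.9%, 4.63% and 4.39% for Ccl4, 95.4%, 90.6% and 63.6% for Ccl5, and 1.72%, 0.483% and 0.866% for Ccl9. At full depth they were 17.4%, 2.62% and 4.28% for Ccl3, 35.3%, 8.31% and 8.03% for Ccl4, 98.0%, 96.5% and 82.8% for Ccl5, and 2.98%, 1.04% and 1.52% for Ccl9. At 40 reads Ccl5 was 88.0%, 83.5% and 41.1%. Ccl4 among Ccl3+ cells was 57.4% in the anti-CD4 and 29.4% in the tag 2 tumour at 3 reads, and 67.0% in the anti-CD4 tumour at full depth. Without the largest clone of each tumour CPM was 948, 135 and 211 for Ccl3, 1423, 163 and 260.0 for Ccl4, 84373, 121214 and 43983 for Ccl5, and 398, 132 and 99.7 for Ccl9; that of Ccl9 in tag 2 moved most.

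The 3 tumours limit every contrast, and with 1 sum per class and mouse a gene needs a steady difference to pass. Shares of cells depend on depth and on the read cut, as the values above show, but at each cut the shares ran anti-CD4, tag 1, tag 2 for Ccl5 and anti-CD4, tag 2, tag 1 for Ccl3, from high to low; by CPM tag 1 was highest for Ccl5.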
